A study of Mus musculus with 24 samples.

Results

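The 6 libraries described here are both ends of a sort of crypt cells from vehicle-treated mice: the Lgr5high and the Lgr5neg gate of the same 3 mice. They are 6 of the 24 libraries of the series, and each was put in its group by its labels alone. The animals were male C57BL/6 mice that carry the Lgr5-EGFP reporter, called littermates in the labels but aged 15 weeks (replicates 1 and 2) or 11 weeks (replicate 3), and they had received injections of PBS, the vehicle of neuregulin 1 (NRG1), for 5 days. The small intestine was scraped to take off the villi, crypts were released with EDTA and dissociated, and dead cells and cells stained for CD45 or CD31 were gated out. The labels call the Lgr5high and CD24low gate CBC stem cells and the Lgr5neg and CD24neg gate differentiated cells. From the same mice came 6 libraries of the gates between them, Lgr5med (immediate progenitors) and Lgr5low (subsequent progenitors), which are used below only to place the values of the ends. A further 6 libraries, of the Lgr5high and Lgr5neg gates of mice given 7.5 µg NRG1 every 12 hours, served to ask whether the difference was another one there. The gates rest on reporter protein and CD24 staining, so they are not a count of cells of a type. In pooled RNA of this kind, fewer cells of a type and less RNA per cell cannot be told apart.

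As background, the lining of the small intestine renews itself from crypt base columnar (CBC) stem cells, which sit between Paneth cells at the crypt bottom and carry the receptor Lgr5. Wnt signals keep them dividing, Notch signals steer their daughters towards absorption or secretion, and BMP and hedgehog signals act against stem cell growth towards the villus. Daughters divide several more times, leave the cell cycle and become absorptive enterocytes or one of the goblet, Paneth, enteroendocrine and tuft cells.

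Total counts of the 6 libraries lay between 18018368 and 23240804, and 13074 to 13535 genes had 10 or more counts in Lgr5high against 11624 to 11936 in Lgr5neg. The mitochondrial ribosomal RNAs took 43.2% to 46.6% of the counts in Lgr5high and 54.1% to 54.4% in Lgr5neg. Levels are given as CPM (counts divided by the TMM-scaled library size, times 1e+06), 1 value per library in the order of mouse 1, 2 and 3. A library with no count of a gene can still hold up to 3, and 3 counts equalled 0.114 to 0.248 CPM in these libraries, and floors cover counting error only.

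Most genes differed between the ends of the sort. Of 13086 genes tested, 8813 (67.3%) were called, which means an adjusted p under 0.05 in edgeR's quasi-likelihood test with the mouse as block and Benjamini-Hochberg adjustment over all genes tested. Of these, 4607 were higher in Lgr5high (35.2% of the genes tested) and 4206 lower (32.1%). All adjusted p-values of single genes below come from this test. A stricter call, that the difference lies beyond 2-fold (edgeR's glmTreat), was met by 2530 genes higher in Lgr5high (19.3%) and 2213 lower (16.9%). The median log2 difference (Lgr5high minus Lgr5neg) over all genes was 0.09, the median size 1.06, and the median standard error (SE) 0.23. Values of the 3 Lgr5high and the 3 Lgr5neg libraries did not overlap for 9692 genes (74.1%). With library totals in place of TMM the median moved to 1.04, and 79.7% of the calls were then higher in Lgr5high against 52.3%. Directions of small differences are therefore relative to TMM, which sets the median near 0.

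The genes that set the gates come first, as a description with no test of the sort. Lgr5 (chromosome 10, 115450311 to 115587780 on GRCm38) stood at 225, 103 and 184 CPM in the Lgr5high libraries and at 1.05, 1.62 and 1.24 CPM in the Lgr5neg libraries. Cd24a, which encodes the CD24 antigen, stood at 502, 435 and 395 CPM against 20.9, 30.7 and 35.5 CPM. Both genes were in order with the labels in each mouse, and Lgr5 was lowest of the Lgr5high libraries in mouse 2. Epcam, the epithelial adhesion protein, was abundant in all 6 libraries, at 632, 715 and 668 against 1193, 961 and 1209 CPM (log2 difference -0.73, SE 0.21, adjusted p = 0.00506). Its call ended without mouse 1 (adjusted p = 0.067) or mouse 3 (0.0725), and with library totals its difference turned to 0.22.

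The CBC stem cell markers were the list with the highest median. Of 26 listed genes, all tested, 25 were called higher in Lgr5high and 1 lower, with a median log2 difference of 5.36 against 0.09 over all genes. Of the 26, 17 passed the filter on low counts through both gates. The other 9 passed through Lgr5high only, so for these 9 the filter itself favoured a difference to that side. Lgr5, whose reporter set the gates, is itself a member of the list, so its place in this count was fixed by the sort. Olfm4, a secreted glycoprotein of the crypt base (chromosome 14, 79984081 to 80023139), was at 2565, 1753 and 2352 CPM in Lgr5high and at 12.4, 16.9 and 20.4 CPM in Lgr5neg (log2 difference 7.07, SE 0.30, adjusted p = 8.96e-12). All 3 Lgr5high values lay far above the highest Lgr5neg value. Ascl2, the Wnt-responsive transcription factor of CBC cells (chromosome 7, 142966829 to 142969264), was at 64.3, 49.2 and 61.6 against 0.526, 0.405 and 0.413 CPM (log2 difference 6.9997, SE 0.26, adjusted p = 5.54e-12). Smoc2, a secreted matricellular protein, was at 119, 91.5 and 121 against 1.73, 2.03 and 2.98 CPM (log2 difference 5.63, SE 0.22, adjusted p = 6.79e-12). For these genes, too, no library of one gate reached the other. Sox9, a crypt transcription factor (4.92), Msi1, an RNA-binding protein (6.28), and Cd44, the hyaluronan receptor (6.66), were higher on the log2 scale as well. Tnfrsf19, a receptor of the tumour necrosis factor family, was at 45.8, 19.4 and 38.3 CPM in Lgr5high, and its Lgr5neg libraries held 7 counts in all. The exception was Sectm1b, at 59.5, 31.4 and 40.5 CPM in Lgr5high and 666, 338 and 459 CPM in Lgr5neg (log2 difference -3.47, SE 0.20, adjusted p = 1.23e-10), lower in all 3 mice although it stands on the stem cell list.

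Outside the lists, the largest differences towards Lgr5high among well-measured genes were those of a glutamate transporter and a neuronal scaffold gene. Slc1a2, the glutamate transporter known from astrocytes (chromosome 2, 102658659 to 102790784), was at 52.4, 26.4 and 47.7 CPM in Lgr5high, and its 3 Lgr5neg libraries held 4 counts in all against 2902 (log2 difference 8.54, SE 0.35, adjusted p = 7.23e-12). Dpysl5, a collapsin response mediator protein, was at 52.9, 34 and 28.1 CPM in Lgr5high against 8 counts over the 3 Lgr5neg libraries (log2 difference 7.43, SE 0.35, adjusted p = 1.94e-11). Prelp, a small leucine-rich matrix proteoglycan, was at 222, 171 and 227 against 1.2, 1.86 and 2.31 CPM (log2 difference 6.85, SE 0.25, adjusted p = 5.54e-12). These 3 genes show the same pattern as most of the stem cell markers, with Lgr5neg near the floor for Slc1a2 and Dpysl5 and low but above it for Prelp. Slfn9 (6.43), Nav1, a microtubule-binding neuron navigator (6.42), Ifitm3, an interferon-induced membrane protein (6.40), and Slc7a2, a cationic amino acid transporter (6.35), followed on the log2 scale.

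**Figure D1:**
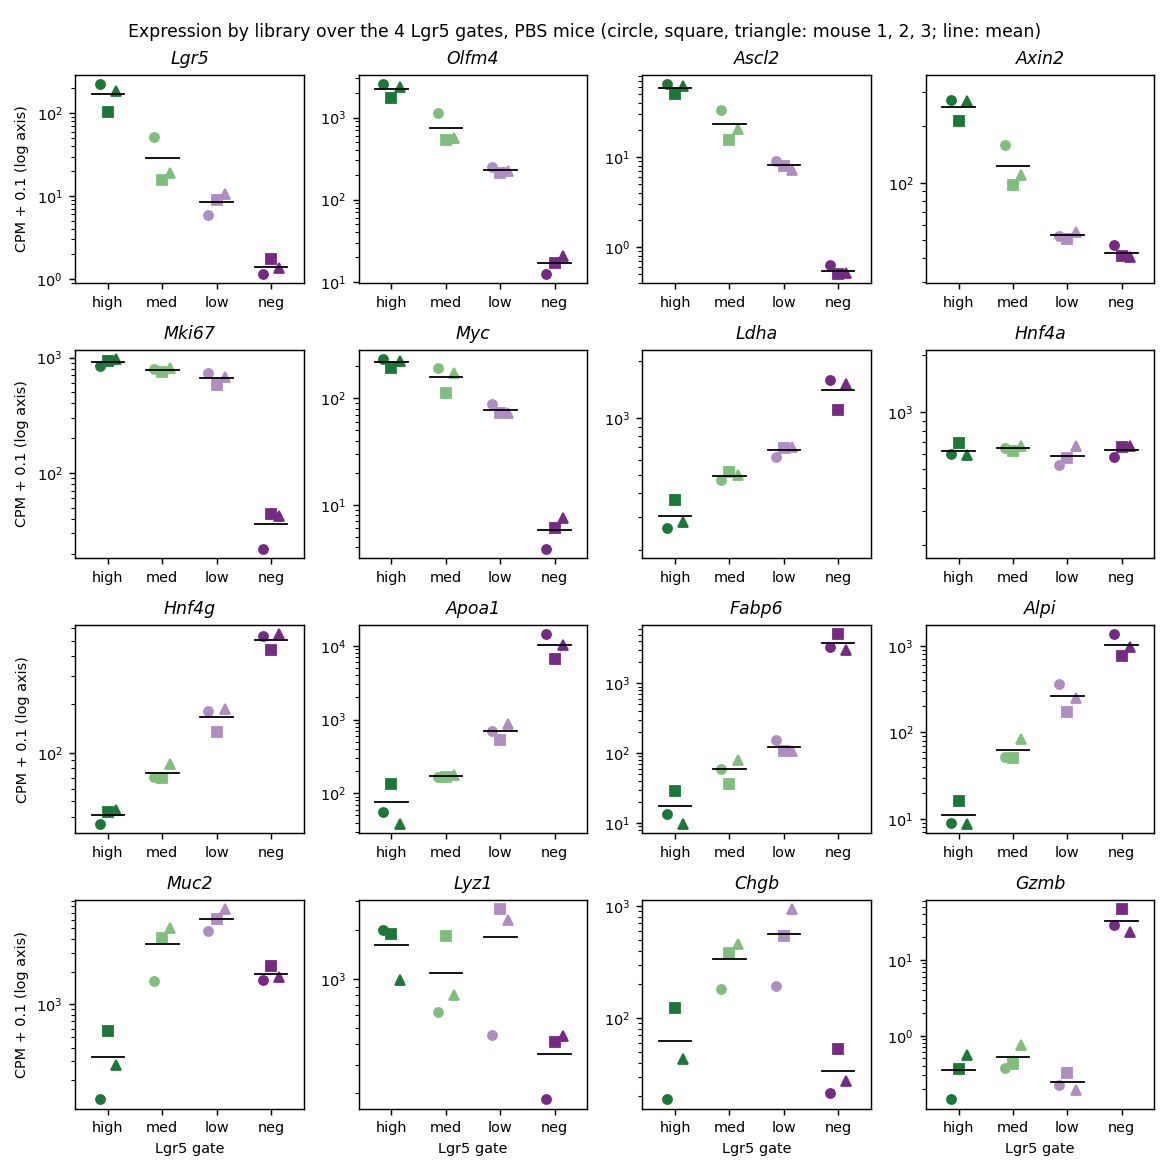
Each panel shows 1 gene, with CPM + 0.1 on a log axis of its own range against the 4 Lgr5 gates of PBS mice; symbols are the 3 mice and lines the means of 3 libraries. Lgr5 and Olfm4 step down from gate to gate, Mki67 stays between 664 and 914 CPM on average until Lgr5low, Hnf4a is level across the ends, and Muc2 and Chgb are highest in Lgr5low.

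Genes of the Wnt pathway were next. Of 24 tested of 27 listed, 17 were called higher in Lgr5high, 2 lower, and 5 were not called, with a median log2 difference of 2.31. Of the 24, 7 passed the filter through Lgr5high only. The 2 antagonists of Wnt receptors that stem cells make, Rnf43 and Znrf3, were both higher: Rnf43 was at 125, 78.9 and 136 against 20, 18.2 and 16.9 CPM (log2 difference 2.59, SE 0.19, adjusted p = 4.04e-09). Znrf3 was at 79.5, 57.9 and 69.5 against 3.83, 6.08 and 5.95 CPM (log2 difference 3.71, SE 0.22, adjusted p = 2.57e-10). Axin2, the feedback inhibitor in the destruction complex (chromosome 11, 108920349 to 108950783), was at 272, 212 and 271 against 46.6, 41.1 and 40.3 CPM (log2 difference 2.55, SE 0.18, adjusted p = 1.97e-09). Axin2 thus remained well above the floor in Lgr5neg, where Ascl2 was close to it. Myc, a growth-driving transcription factor and Wnt target (chromosome 15, 61985391 to 61990374), was at 233, 193 and 224 against 3.76, 6 and 7.44 CPM (log2 difference 5.27, SE 0.24, adjusted p = 1.58e-11). Sox4, a transcription factor, was at 20.8, 14.7 and 20.8 CPM in Lgr5high with 5 counts over the Lgr5neg libraries. The receptor gene Fzd2 was at 8.56, 5.95 and 5.29 CPM in Lgr5high with 1 count over the Lgr5neg libraries. The receptors present in both gates differed less. Lgr4, the paralogue of Lgr5, was at 160.0, 134 and 146 against 81.2, 93.4 and 98.7 CPM (log2 difference 0.69, SE 0.17, adjusted p = 0.00201). The frizzled receptor gene Fzd5 was lower in Lgr5high, at 175, 201 and 138 against 223, 287 and 265 CPM (log2 difference -0.60, SE 0.18, adjusted p = 0.00856), and so was Tcf7l2, the nuclear effector of the pathway, at 73.8, 83.6 and 59.1 against 119, 148 and 111 CPM (log2 difference -0.81, SE 0.16, adjusted p = 0.000332). The call of Fzd5 ended without mouse 3 (adjusted p = 0.155), and with library totals Fzd5 (0.35) and Tcf7l2 (0.15) turned to the other direction on the log2 scale without passing the test. Ctnnb1, Apc, Lrp5, Lrp6 and Sp5 were the 5 genes not called, and they are named here because they make up that count.

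Eph receptors and their ephrin ligands, which sort cells along the crypt axis by repulsion, split by side. Of 12 tested of 15 listed, 7 were called higher in Lgr5high and 5 lower. Of the 12, 4 passed the filter through Lgr5high only, Ephb3 and Epha4 among them, so for these the filter itself favoured that side. Ephb3 (chromosome 16, 21204755 to 21223305) was at 66.9, 50.1 and 42.5 against 0.601, 1.05 and 1.49 CPM (log2 difference 5.65, SE 0.29, adjusted p = 1.07e-10). Ephb2, the other receptor of the crypt base, was at 93.3, 76.3 and 101 against 5.33, 9.73 and 7.19 CPM (log2 difference 3.62, SE 0.22, adjusted p = 4.05e-10), and Epha4 differed by 3.95 on the log2 scale. The ligand genes Efnb2 and Efnb1 were lower in Lgr5high. Efnb2 was at 6.14, 8.61 and 8.32 against 121, 179.8 and 135 CPM (log2 difference -4.23, SE 0.19, adjusted p = 1.28e-11). Efnb1 was at 18.7, 15 and 17.8 against 53, 51.6 and 42.8 CPM (log2 difference -1.52, SE 0.17, adjusted p = 6.03e-07), and the receptor gene Epha2 was lower as well (-3.19). In each of these genes the 3 libraries of one gate lay apart from the 3 of the other.

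The Notch list held 13 tested genes of 17, of which 7 were called higher in Lgr5high, none lower, and 6 were not called, with a median of 0.89. Of the 13, 3 passed the filter through Lgr5high only, Lfng among them. The receptors were among those that differed most. Notch1 (chromosome 2, 26457903 to 26516663) was at 70.4, 61.2 and 65.6 against 3.76, 3.89 and 3.22 CPM (log2 difference 4.18, SE 0.20, adjusted p = 1.79e-11). Notch2 was at 61.3, 59.1 and 61.6 against 2.78, 5.43 and 6.45 CPM (log2 difference 3.68, SE 0.23, adjusted p = 4.83e-10). The Notch target Hes1 was at 51.7, 34.2 and 39.7 against 12.4, 7.05 and 10.7 CPM (log2 difference 2.07, SE 0.18, adjusted p = 2.69e-08), and Lfng, a glycosyltransferase that modifies Notch, differed by 3.36 on the log2 scale. The ligand Dll1, made by secretory progenitors, overlapped between the gates, at 9.06, 20.5 and 13 against 16.5, 11.4 and 6.69 CPM (log2 difference 0.31, SE 0.33, adjusted p = 0.422). Without mouse 1 it passed the test, with a log2 difference of 0.90 (adjusted p = 0.00429).

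In the BMP, TGF-beta and hedgehog list, 23 of 27 genes were tested, and 7 were called higher, 8 lower and 8 not, with a median of -0.14, against 14 higher and 5 lower with library totals. The share called, 15 of 23, was close to that of all genes. Ihh, the hedgehog ligand of differentiating epithelium (chromosome 1, 74945315 to 74951672), was at 4.1, 2.24 and 4.03 against 47.5, 43.6 and 39.3 CPM (log2 difference -3.68, SE 0.22, adjusted p = 2.55e-10). Bmp2 was at 2.64, 3.56 and 1.13 against 29.4, 28.5 and 24.5 CPM (log2 difference -3.56, SE 0.26, adjusted p = 3.87e-09), and Smad7, an inhibitory Smad, at 7.42, 6.9 and 5.11 against 57.6, 46.3 and 36.2 CPM (log2 difference -2.84, SE 0.18, adjusted p = 4.87e-10). Id2, a BMP target, was lower by less (-1.06), and its call ended with library totals (-0.10, adjusted p = 0.722). Ptch1, the hedgehog receptor, was at 71.9, 56.8 and 60.4 against 6.69, 8.43 and 12.6 CPM (log2 difference 2.80, SE 0.21, adjusted p = 6.53e-09), and Tgfbr2, a TGF-beta receptor gene, differed by 1.81 on the log2 scale.

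ErbB receptors and ligands, the pathway that NRG1 acts on, also differed between the gates in PBS mice. Of 13 tested of 16 listed, 3 were called higher in Lgr5high, 8 lower and 2 not, against 6 higher and 4 lower with library totals. Erbb3, which binds NRG1, was at 178, 136 and 156 CPM in Lgr5high and 347, 366 and 424 CPM in Lgr5neg (log2 difference -1.28, SE 0.19, adjusted p = 1.44e-05). Its partner Erbb2 was at 87, 76.8 and 70 against 183, 169 and 183 CPM (log2 difference -1.20, SE 0.17, adjusted p = 8.86e-06), and Egfr was higher in Lgr5high, at 63, 64.7 and 61.5 against 29.4, 29.4 and 24.2 CPM (log2 difference 1.19, SE 0.16, adjusted p = 5.38e-06). With library totals neither Erbb2 (-0.24) nor Erbb3 (-0.32) passed the test on the log2 scale. The ligand genes Ereg (-4.86), Areg (-3.32) and Hbegf (-2.82) were lower in Lgr5high on the log2 scale, while the ligand genes Nrg4 (0.93) and Egf (2.35) were higher. Egf had 52 counts in Lgr5high and 6 in Lgr5neg, and passed the filter through Lgr5high only. Its call ended by DESeq2 (adjusted p = 0.0548), without mouse 2 (0.205) and without mouse 3 (0.138). The genes Nrg1 and Erbb4 were below the filter on low counts.

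Genes of cell division were higher in Lgr5high with 1 exception among those tested. Of 39 G2/M and mitosis genes, all tested, 39 were called higher in Lgr5high, with a median log2 difference of 4.21 and a range of 1.87 to 5.30. Of 40 tested S phase and DNA replication genes, 39 were called higher and 1 lower, with a median of 3.77. Of the G2/M genes 7, and of the S phase genes 9, passed the filter through Lgr5high only. Mki67, the proliferation antigen Ki-67 (chromosome 7, 135689784 to 135716361), was at 840.1, 934 and 969 against 21.9, 44.1 and 41.9 CPM (log2 difference 4.73, SE 0.25, adjusted p = 5.03e-11). Top2a, topoisomerase II alpha, was at 505, 548 and 494 against 9.69, 16.4 and 16.6 CPM (log2 difference 5.21, SE 0.24, adjusted p = 1.48e-11). Ttk, a kinase of the spindle checkpoint, was at 38.9, 42.1 and 31.8 against 0.751, 1.14 and 1.16 CPM (log2 difference 5.21, SE 0.25, adjusted p = 2.48e-11). In these 3 genes each Lgr5high library lay far above each Lgr5neg library. Ccnb1, the mitotic cyclin B1 (3.81), and Nuf2, a kinetochore protein (5.30), differed likewise on the log2 scale. Of the replication genes, Pola1, the catalytic subunit of DNA polymerase alpha, was at 58.9, 53.4 and 49.5 against 0.901, 1.3 and 0.909 CPM (log2 difference 5.70, SE 0.24, adjusted p = 7.96e-12). Mcm6, part of the replicative helicase, was at 96.3, 110.2 and 129.7 against 7.14, 5.11 and 5.12 CPM (log2 difference 4.27, SE 0.21, adjusted p = 3.12e-11). Pole, DNA polymerase epsilon (5.43), and Ung, the uracil glycosylase (5.48), were higher too on the log2 scale. The 1 S phase gene on the other side was E2f2, an E2F transcription factor, at 32.7, 40 and 24.2 against 75.4, 98.5 and 52.9 CPM (log2 difference -1.21, SE 0.16, adjusted p = 3.79e-06), and with library totals it no longer passed the test.

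The promoters of these genes carry known cell cycle letters, which are shown because the lists moved together. Windows from 250 bases before to 50 after the gene start, from RefSeq on GRCm38.p6, were found for 27025 genes and for 32 of the G2/M and 34 of the S phase genes. The cell cycle homology region (CHR), bound by the DREAM and MuvB complexes, was searched as TTTGAA on both strands. It matched in 71.9% of the G2/M windows, 11.8% of the S phase windows and 18.1% of all windows. The CCAAT box, bound by NF-Y, matched in 75.0% of the G2/M, 61.8% of the S phase and 62.5% of the Wnt windows against 37.9% of all. An E2F site, searched as TTTGGCGC or TTTCCCGC, matched in 32.4% of the S phase windows, in 0 of 32 G2/M windows and in 1.63% of all. Over the genes beyond 2-fold, CHR matched in 15.4% of 1814 windows higher in Lgr5high and 12.1% of 1633 windows lower, and E2F in 5.18% and 1.53%. Over the 9376 windows of genes tested, a nearer background, the shares were 12.1% for CHR, 39.2% for CCAAT and 3.09% for E2F. A match is a description of letters and not of a bound site. The 4 windows below are those of the G2/M and S phase genes with the largest differences that hold a match, printed from 250 bases before to 30 after the start. In Top2a (chr11:99024160-99024439, minus strand) and Ttk (chr9:83834439-83834718, plus strand) the capitals mark CHR matches (TTTGAA, or the variant TTCGAA) and CCAAT boxes on either strand. In Pola1 (chrX:93632126-93632405, minus strand) and Mcm3 (chr1:20820283-20820562, minus strand) they mark E2F matches.
Top2a: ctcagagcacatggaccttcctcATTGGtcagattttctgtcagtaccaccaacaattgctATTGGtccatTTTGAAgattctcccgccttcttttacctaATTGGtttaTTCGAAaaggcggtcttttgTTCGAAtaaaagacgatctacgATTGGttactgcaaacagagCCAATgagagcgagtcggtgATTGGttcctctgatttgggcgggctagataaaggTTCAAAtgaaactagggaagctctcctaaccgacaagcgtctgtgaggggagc
Ttk: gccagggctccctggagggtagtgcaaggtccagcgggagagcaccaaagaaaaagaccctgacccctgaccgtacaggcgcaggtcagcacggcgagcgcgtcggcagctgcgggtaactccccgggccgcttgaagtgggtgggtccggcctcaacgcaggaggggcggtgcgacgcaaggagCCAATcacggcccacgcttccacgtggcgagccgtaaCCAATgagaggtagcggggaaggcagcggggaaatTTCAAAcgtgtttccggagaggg
Pola1: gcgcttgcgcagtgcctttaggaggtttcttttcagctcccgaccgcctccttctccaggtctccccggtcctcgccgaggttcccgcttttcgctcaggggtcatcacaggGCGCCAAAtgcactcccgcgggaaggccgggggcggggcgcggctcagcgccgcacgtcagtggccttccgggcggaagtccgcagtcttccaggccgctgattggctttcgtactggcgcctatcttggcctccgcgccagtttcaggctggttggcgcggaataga
Mcm3: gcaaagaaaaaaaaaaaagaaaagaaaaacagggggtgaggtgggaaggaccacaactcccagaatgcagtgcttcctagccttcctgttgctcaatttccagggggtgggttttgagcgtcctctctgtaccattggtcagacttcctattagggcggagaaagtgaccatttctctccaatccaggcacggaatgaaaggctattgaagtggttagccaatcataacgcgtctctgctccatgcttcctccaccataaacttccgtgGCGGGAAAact
In Top2a, 6 CCAAT boxes and 4 CHR forms share the window, and the CHR nearest the gene begins 23 bases before the start. In Pola1 the E2F match begins 138 bases before the start. Mcm3, a helicase subunit that is printed by this rule, differed by 5.32 on the log2 scale.

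The brakes of the cell cycle went mostly the other way. Of 20 genes of cell cycle inhibition and exit, 13 were called lower in Lgr5high, 4 higher and 3 not, with a median of -1.17, against 8 lower and 8 higher with library totals. Cdkn1a, which encodes p21 (chromosome 17, 29090976 to 29100727), was at 13.7, 13 and 10.7 CPM in Lgr5high and 447.8, 313 and 395 CPM in Lgr5neg (log2 difference -4.93, SE 0.22, adjusted p = 1.16e-11). Cdkn2b, which encodes p15, was at 0.501, 1.1 and 0.543 against 81, 77.3 and 60.7 CPM (log2 difference -6.66, SE 0.25, adjusted p = 6.22e-12). Mxd1, a Myc antagonist, was at 5.92, 12.1 and 7.33 against 341, 321 and 271 CPM (log2 difference -5.25, SE 0.24, adjusted p = 1.72e-11). Lgr5neg libraries were thus high and even for all 3. Cdkn2c, which encodes p18, was higher in Lgr5high, at 10.4, 7.55 and 8.19 against 0.826, 1.22 and 0.331 CPM (log2 difference 3.48, SE 0.40, adjusted p = 6.93e-07), and so was Rbl1, the pocket protein p107 (1.35).

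Genes of cell growth were higher in Lgr5high as well. Of 34 ribosome biogenesis genes 33 were called higher and none lower, with a median of 2.50, and none of them rested on 1 gate for the filter. The gene not called was Bop1, at 9.88, 16 and 17.5 against 11.5, 15 and 15.2 CPM (0.03), named because it is the single one. Ncl, nucleolin, was at 988, 1293 and 899.6 against 138, 148 and 142 CPM (log2 difference 2.88, SE 0.21, adjusted p = 3.37e-09). Gnl3, nucleostemin, was at 39.9, 44.3 and 48.3 against 3.46, 3.89 and 3.39 CPM (log2 difference 3.62, SE 0.20, adjusted p = 1.06e-10). Rrp1b (4.57) and Gar1 (3.51), further nucleolar proteins, were higher on the log2 scale. Of 22 nucleotide and one-carbon synthesis genes, 22 were called higher, with a median of 3.07, and 6 passed the filter through Lgr5high only. Ppat, the first enzyme of purine synthesis, was at 45.6, 40.8 and 50.9 against 0.751, 0.568 and 1.16 CPM (log2 difference 5.80, SE 0.25, adjusted p = 9.42e-12), and Paics, a later step of that pathway, at 238, 213 and 183 against 4.51, 6.73 and 8.18 CPM (log2 difference 5.04, SE 0.24, adjusted p = 2.92e-11). Ctps, CTP synthase, differed by 5.17 on the log2 scale. Of 34 chromatin and nuclear lamina genes, 28 were called higher, 4 lower and 2 not. Dnmt1, the maintenance DNA methyltransferase, was at 168, 159 and 160.0 against 7.81, 12 and 8.35 CPM (log2 difference 4.13, SE 0.20, adjusted p = 2.64e-11). The 5-methylcytosine oxidases split: Tet1 was higher in Lgr5high (4.99) and Tet2 lower (-0.99) on the log2 scale. The call of Tet2 ended with library totals (-0.04, adjusted p = 0.856). Hells, a chromatin remodeller (4.09), was higher, and Lmna, lamin A/C, was lower at 4.78, 13.2 and 6.11 against 28.4, 25.5 and 24.5 CPM (log2 difference -1.82, SE 0.27, adjusted p = 3.35e-05).

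**Figure D2:**
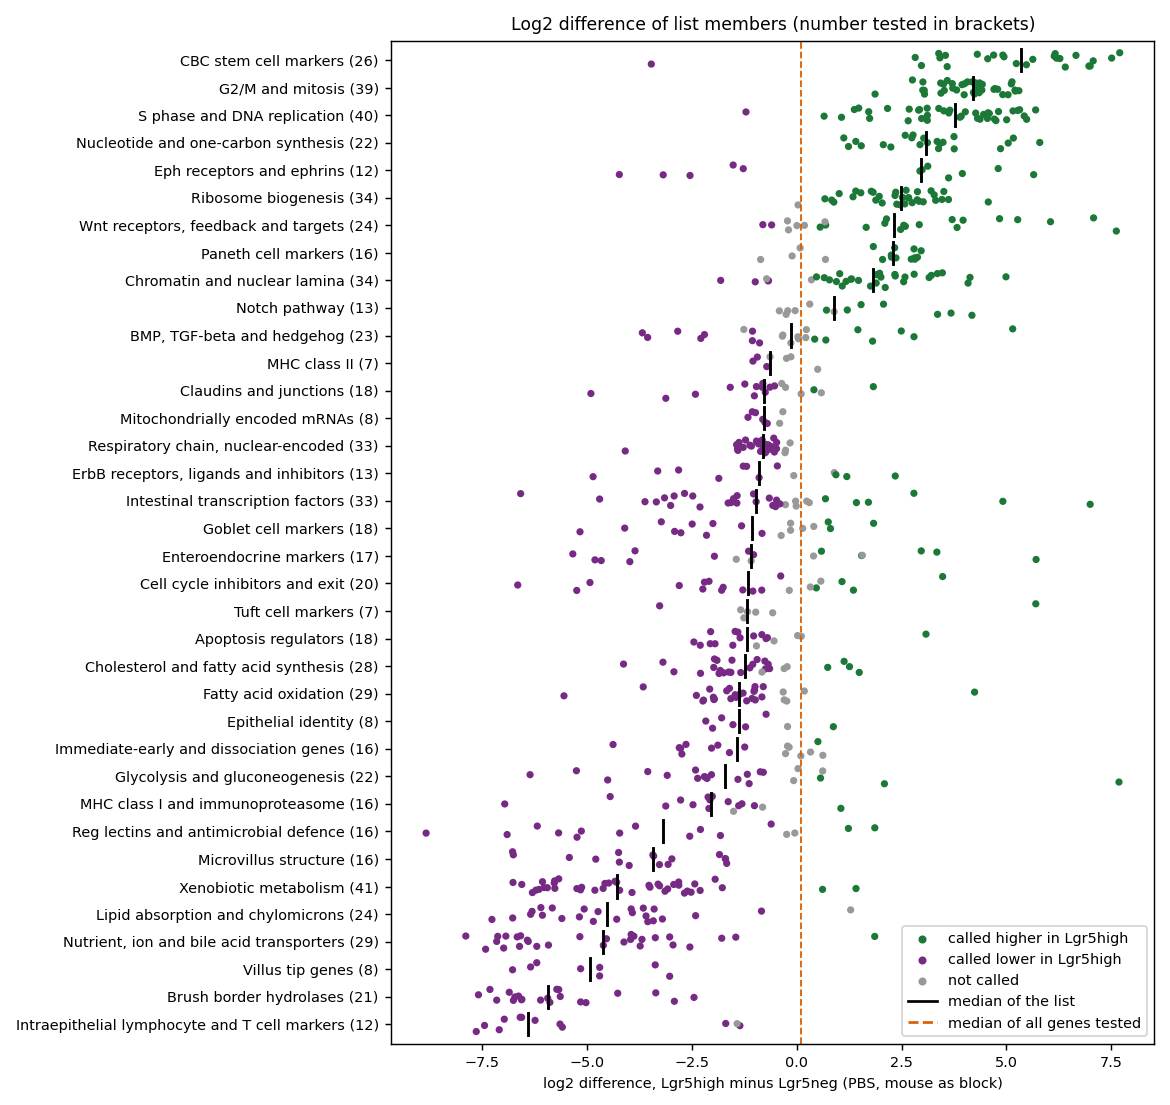
Log2 difference (Lgr5high minus Lgr5neg, x axis) of each tested member of the gene lists with at least 7 tested genes; black bars are list medians and the dashed line is the median of all genes tested. Stem cell, mitosis and replication lists lie on the right with few exceptions, brush border, lipid and transport lists on the left, and Notch, BMP and enteroendocrine lists spread over both sides.

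The enterocyte program was the mirror image. Of 21 tested brush border hydrolases, 21 were called lower in Lgr5high, with a median log2 difference of -5.94 and a range of -7.60 to -2.45, and all 21 passed the filter through both gates. Sis, sucrase-isomaltase, was at 33.4, 60.7 and 32.4 CPM in Lgr5high and 4262, 4286 and 5666 CPM in Lgr5neg (log2 difference -6.86, SE 0.33, adjusted p = 2.47e-11). Alpi, intestinal alkaline phosphatase (chromosome 1, 87098002 to 87101606), was at 8.87, 15.8 and 8.59 against 1373, 765 and 975 CPM (log2 difference -6.56, SE 0.34, adjusted p = 6.36e-10). Plb1, a phospholipase of the brush border, was at 2.41, 6.98 and 4.88 against 754, 691 and 1229 CPM (log2 difference -7.60, SE 0.35, adjusted p = 2.12e-10). Lgr5high values of these genes were low but above the floor in all 3 mice, and mouse 2 was the highest of the 3 each time. Anpep, aminopeptidase N, was at 163, 170.2 and 139.8 against 10008, 8838 and 10233 CPM (log2 difference -5.94, SE 0.29, adjusted p = 2.52e-11), so that its Lgr5high level was well above that of the other hydrolases named here. Enpp7, alkaline sphingomyelinase (-7.32), Dpep1, a dipeptidase (-7.44), and Ggt1, a gamma-glutamyltransferase (-7.16), were lower on the log2 scale, and the call of Ggt1 ended without mouse 3 (adjusted p = 0.0695). Of 16 microvillus structure genes, 16 were called lower, with a median of -3.42. Vil1, villin, was at 193, 209 and 201 against 2335, 1879.6 and 2325 CPM (log2 difference -3.43, SE 0.23, adjusted p = 9.67e-10), Espn, an actin bundler, at 0.637, 1.55 and 1.58 against 61.7, 46 and 56.1 CPM (log2 difference -5.43, SE 0.28, adjusted p = 3.65e-10). All 8 villus tip genes were called lower in Lgr5high, although villi had been scraped off: Krt20, a keratin of mature enterocytes, was at 8.24, 29.4 and 9.41 against 1779, 1259.7 and 1371 CPM (log2 difference -6.78, SE 0.52, adjusted p = 7.86e-06), and Ada, adenosine deaminase, differed by -3.38 on the log2 scale.

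Lipid handling was nearly as even, with 23 of 24 genes called lower in Lgr5high, 1 not called and a median of -4.52. Apoa1, an apolipoprotein of chylomicrons (chromosome 9, 46228580 to 46230466), was at 55.6, 133 and 38.1 against 14435, 6562 and 10225 CPM (log2 difference -7.27, SE 0.62, adjusted p = 1.53e-05). Fabp1, a fatty acid binding protein, was at 35.4, 74.4 and 25.8 against 4081, 2382 and 3427 CPM (log2 difference -6.32, SE 0.45, adjusted p = 4.09e-07). Fabp2 reached 28039, 12455 and 21681 CPM in Lgr5neg against 305, 429.8 and 183 CPM in Lgr5high (log2 difference -6.11, SE 0.42, adjusted p = 1.5e-08). In these 3 genes mouse 2 had the highest Lgr5high and the lowest Lgr5neg value, so the pair of mouse 2 lay closest together. Apob, the core protein of chylomicrons, was at 357, 337 and 349.7 against 5208, 4975 and 5667 CPM (log2 difference -3.92, SE 0.25, adjusted p = 4.75e-10), and Mogat2, which rebuilds triglycerides, at 1.05, 2.5 and 1.27 against 208, 159 and 160.1 CPM (log2 difference -6.78, SE 0.29, adjusted p = 7.93e-11). Apoa4 was lower (log2 difference -6.35, SE 0.92, adjusted p = 0.00582), and its call ended without mouse 3 (adjusted p = 0.09). The gene not called was Scarb1, a lipoprotein receptor, at 1.82, 1.86 and 1.99 against 1.43, 0.405 and 0.661 CPM (log2 difference 1.28, SE 0.58, adjusted p = 0.0608), named as the single one. Without mouse 1 Scarb1 passed the test on the side of Lgr5high (log2 difference 1.86, adjusted p = 0.0396). It also passed with library totals (0.00205), upper quartile scaling (0.0291), no filter (0.0491) and all 12 PBS libraries (0.0162 with the block, 0.0397 without). It did not pass by DESeq2 (0.0876), without the block (0.0541), with mitochondrial genes removed (0.0553), or without mouse 2 (0.278) or mouse 3 (0.199).

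Transporters of nutrients, ions and bile acids followed, with 28 of 29 tested genes called lower in Lgr5high, 1 higher and a median of -4.62. Fabp6, the ileal bile acid binding protein (chromosome 11, 43596049 to 43601540), had the largest difference of the named genes on that side, at 13.4, 28.5 and 9.59 against 3344, 5070.5 and 2969 CPM (log2 difference -7.90, SE 0.31, adjusted p = 6.79e-12). Slc34a2, a phosphate transporter, was at 2.87, 6.71 and 1.99 against 653, 569 and 594 CPM (log2 difference -7.42, SE 0.37, adjusted p = 4.6e-09). Slc5a1, the sodium-glucose transporter SGLT1, was at 91.2, 102 and 133 against 1640.4, 1342 and 1824 CPM (log2 difference -3.89, SE 0.23, adjusted p = 2.12e-10). The glucose transporter thus stayed abundant in Lgr5high, while the phosphate transporter was low there but above the floor. Slc15a1, the peptide transporter (-7.14), Slc6a19, for neutral amino acids (-7.16), Slc13a2, for citrate (-7.19), Slc7a15 (-7.36) and Slc28a1, for nucleosides (-6.20), were lower on the log2 scale. Mgat4c, a glycosyltransferase gene outside the lists, was at 0.228, 0.455 and 0.452 against 64.8, 74.3 and 77 CPM (log2 difference -7.55, SE 0.25, adjusted p = 4.79e-12). Of 41 tested genes of xenobiotic metabolism, 39 were called lower, 2 higher, and the median was -4.30; 4 passed the filter through Lgr5neg only. Gsta1, a glutathione transferase, was at 4.6, 6.03 and 1.9 against 589, 323 and 411 CPM (log2 difference -6.77, SE 0.38, adjusted p = 6.05e-08). Cyp3a11, a cytochrome P450, varied more between mice, at 3.37, 4.44 and 0.995 against 519, 88.9 and 164 CPM (log2 difference -6.23, SE 0.89, adjusted p = 0.00582), and its call ended without mouse 3 (adjusted p = 0.135), as did that of Cyp2b10 (-6.56, then 0.153). Reads of such families of near-identical genes may be split between members, so single members of the Gsta, Cyp3a, defensin, Reg3 and H2-Q families are uncertain. The 2 genes on the other side were Aldh1b1, a mitochondrial aldehyde dehydrogenase, at 195, 238 and 213 against 124, 151 and 147 CPM (log2 difference 0.61, SE 0.17, adjusted p = 0.00433), and Ephx1, an epoxide hydrolase, at 11.3, 7.81 and 12.1 against 11.1, 1.3 and 2.81 CPM (log2 difference 1.41, SE 0.45, adjusted p = 0.019). The call of Ephx1 ended without mouse 3 (adjusted p = 0.129) and without the mouse as block (0.228).

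Promoter windows of these lists held intestinal letters at low shares. The CDX site, searched as TTTATGG, matched in 16.7% of 18 brush border windows (3 of 18) and 5.56% of 18 lipid windows. It matched in 0 of 27 transporter windows and in 2.76% of all. Over the genes beyond 2-fold, CDX matched in 1.84% of the windows lower in Lgr5high and 1.71% of those higher. An HNF4 site, searched as CAAAGTCCA, matched in 11.1% of the brush border and 7.41% of the transporter windows against 0.477% of all. It matched in 0 of 18 lipid windows and in 6.25% of the Wnt windows. In the genes beyond 2-fold it matched in 1.16% of the windows lower in Lgr5high against 0.386% of those higher. The HNF1 motif matched in 7.41% of 27 transporter windows (2 of 27) against 0.0629% of all. It matched in 0 of 18 brush border and 0 of 18 lipid windows. Shares above 0 rest on 1 to 3 genes each in the lists. The TCF site CTTTGAT, of the Wnt effectors, matched in 6.25% of 16 Wnt windows (1 of 16) and in 6.25% of the G2/M windows. It matched in 11.1% of the brush border windows (2 of 18), against 3.72% of all. Over the windows of genes tested, the shares were 1.69% for CDX, 0.48% for HNF4, 0.032% for HNF1 and 2.47% for TCF. The windows of Plb1 (chr5:32238834-32239113, plus strand) and Fabp1 (chr6:71199629-71199908, plus strand) are shown as the brush border and the lipid gene with the largest difference and a match, with the CDX letters in capitals.
Plb1: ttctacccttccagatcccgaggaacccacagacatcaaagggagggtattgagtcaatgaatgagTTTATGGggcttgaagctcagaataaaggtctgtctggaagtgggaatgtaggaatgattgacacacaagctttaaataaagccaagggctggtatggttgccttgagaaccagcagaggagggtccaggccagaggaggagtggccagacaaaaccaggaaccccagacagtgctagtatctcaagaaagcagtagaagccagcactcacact
Fabp1: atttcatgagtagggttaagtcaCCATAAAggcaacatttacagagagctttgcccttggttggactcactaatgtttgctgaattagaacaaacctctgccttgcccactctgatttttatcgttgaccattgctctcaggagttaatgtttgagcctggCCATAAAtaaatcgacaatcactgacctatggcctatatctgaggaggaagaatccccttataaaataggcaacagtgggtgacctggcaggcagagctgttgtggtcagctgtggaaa
Fabp1 holds 2 CDX matches, which begin 227 and 89 bases before the start, and Plb1 holds 1, at 184 bases before the start.

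The transcription factors of the intestine did not move as a block. Of 33 tested, 22 were called lower in Lgr5high, 6 higher and 5 not, with a median of -0.97, against 15 on each side with library totals. Hnf4a, a nuclear receptor of intestinal identity (chromosome 2, 163506808 to 163572910), was at 602, 686 and 593 CPM in Lgr5high and 582, 658 and 659 CPM in Lgr5neg (log2 difference -0.01, SE 0.19, adjusted p = 0.952). Its paralogue Hnf4g (chromosome 3, 3508030 to 3658052) was at 36, 42.9 and 44.3 against 533, 437 and 548 CPM (log2 difference -3.62, SE 0.21, adjusted p = 1.41e-10). The libraries of the gates overlapped for Hnf4a and lay far apart for Hnf4g in every mouse. With library totals Hnf4a would be called higher in Lgr5high (log2 difference 0.94), so its level is set by the scaling, while Hnf4g keeps its side. Cdx2, the caudal homeobox factor, was at 52.2, 50.1 and 35.1 against 63.2, 78.2 and 73.1 CPM (log2 difference -0.66, SE 0.18, adjusted p = 0.00353), a call that ended without mouse 3 (adjusted p = 0.0823) and turned to 0.30 on the log2 scale with library totals. Maf, a factor of mature enterocytes, was at 2.37, 5.08 and 2.04 against 291, 278 and 302 CPM (log2 difference -6.59, SE 0.29, adjusted p = 8.02e-11). Klf4, a factor of differentiated cells (-3.35), and Ppara, the fatty acid sensor (-1.42), were lower in Lgr5high on the log2 scale. Ascl2 and Sox9, given above, are 2 of the 6 factors that were higher.

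Metabolic genes were mostly lower in Lgr5high under TMM. Of 29 fatty acid oxidation genes, 24 were called lower, 1 higher and 4 not, with a median of -1.37 (14 lower and 5 higher with library totals). Acaa1b, a thiolase of peroxisomal oxidation, was at 0.182, 0.152 and 0.136 against 12.9, 3.81 and 8.1 CPM (log2 difference -5.55, SE 0.47, adjusted p = 1.92e-08). Of 22 glycolysis and gluconeogenesis genes, 16 were called lower, 3 higher and 3 not, with a median of -1.72. Ldha, lactate dehydrogenase A, was at 261, 370.1 and 282 against 1592, 1105 and 1511 CPM (log2 difference -2.20, SE 0.24, adjusted p = 3.85e-07), Pfkp, a phosphofructokinase, differed by -4.51, and G6pc, glucose-6-phosphatase, by -6.36 on the log2 scale. Pck1, of gluconeogenesis, was lower as well (log2 difference -5.26, SE 0.67, adjusted p = 0.00321). Hk2, a hexokinase, was higher, at 45.5, 49.4 and 48 against 14.2, 14.1 and 6.53 CPM (log2 difference 2.09, SE 0.22, adjusted p = 5.25e-07). Of 28 cholesterol and fatty acid synthesis genes, 21 were called lower, 4 higher and 3 not (13 lower and 5 higher with library totals). The sterol enzymes Msmo1 (-3.19) and Sc5d (-2.93) were lower, while the fatty acid synthesis genes Fasn (1.26) and Acaca (1.49) were higher on the log2 scale. Of 33 nuclear-encoded genes of the respiratory chain 30 were called lower and 3 not, with a smaller median of -0.80, against 6 lower and 7 higher with library totals. Cox5a, of complex IV, was at 32.8, 37 and 25.3 against 92.9, 81.4 and 80.8 CPM (log2 difference -1.44, SE 0.17, adjusted p = 1.1e-06). Uqcrc1, of complex III, was uneven, at 70.1, 109 and 88.2 against 2883, 441 and 2281 CPM (log2 difference -4.09, SE 0.91, adjusted p = 0.0225), and its call ended without mouse 3 (adjusted p = 0.22). Of 8 tested mitochondrially encoded mRNAs, 6 were called lower and 2 not. mt-Nd1 was at 2419.6, 2342 and 2304 against 5638, 4463 and 5852 CPM (log2 difference -1.17, SE 0.23, adjusted p = 0.000297) and mt-Co1 at 5892, 5663 and 7846 against 12366, 11772 and 16373 CPM (log2 difference -1.06, SE 0.24, adjusted p = 0.000847). With library totals 0 of the 8 were called lower and 1 higher, and without mouse 1 the count of lower ones was 3. The share of mitochondrial ribosomal RNA, higher in Lgr5neg as given above, moved with these lists. With all mitochondrially encoded genes removed before scaling, Cox5a differed by -1.41 on the log2 scale (adjusted p = 1.6e-06), and the median over all genes was 0.10. TMM set that median near 0 with or without these genes, so this step cannot show the part of the ribosomal RNA share in these lists. That part was not tested.

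Secretory cell markers did not lie on one side. Of 18 tested goblet cell markers, 10 were called lower in Lgr5high, 3 higher and 5 not, with a median of -1.07 (8 lower and 7 higher with library totals). Muc2, the gel-forming mucin (chromosome 7, 141690340 to 141754693), was at 134, 574 and 276 CPM in Lgr5high and 1679, 2261 and 1779 CPM in Lgr5neg (log2 difference -2.77, SE 0.29, adjusted p = 9.54e-07), and its average was 3593 CPM in Lgr5med against 6109 in Lgr5low. Zg16, a goblet cell lectin, was at 14.2, 65.4 and 24 against 974, 1181 and 926 CPM (log2 difference -5.17, SE 0.36, adjusted p = 1.26e-07), with means of 972 and 2359 CPM between. Both genes had their highest mean in Lgr5low. In Lgr5med the mean of Muc2 also lay above both end gates, while that of Zg16 lay among its Lgr5neg values. For both genes the Lgr5high library of mouse 2 was the highest of that gate. Galnt12, a mucin glycosyltransferase, was higher in Lgr5high (1.83). Spink4, a goblet cell protease inhibitor, was called higher (log2 difference 0.80, SE 0.26, adjusted p = 0.0177) although its libraries overlapped, at 35.5, 162 and 79.1 against 36.7, 54.4 and 43.7 CPM. Its call ended without mouse 2 (adjusted p = 0.109), without mouse 3 (0.0934) and without the block (0.160). Of 16 tested Paneth cell markers 12 were called higher in Lgr5high, none lower and 4 not, with a median of 2.30, and 4 passed the filter through Lgr5high only. Lyz1, lysozyme (chromosome 10, 117287797 to 117292868), was at 2001, 1894 and 992 CPM in Lgr5high and 184, 409.7 and 451 CPM in Lgr5neg (log2 difference 2.26, SE 0.40, adjusted p = 0.000951). Defa24, a defensin, was at 295, 401 and 381 against 27.1, 63.2 and 54.4 CPM (log2 difference 2.97, SE 0.21, adjusted p = 1.53e-09). Gm15284, a defensin-like gene of the list, was at 488, 539.7 and 311 against 35.8, 82.6 and 68.4 CPM (log2 difference 2.88, SE 0.27, adjusted p = 3.5e-07). The means of these genes in Lgr5low (1818, 402 and 408 CPM) were near those in Lgr5high, and of the 10 Paneth genes beyond 2-fold 8 were highest in a middle gate. The mice differed in this. Of the counts left after removing mitochondrial ribosomal RNA, the list took 0.208%, 1.03% and 0.833% in Lgr5low. In Lgr5high it took 0.742%, 0.84% and 0.48%, in the same order of mice. CD24 protein, on which both gates were set, is known to be abundant on Paneth cells, and how far the gate sets these values was not tested. Of the enteroendocrine markers only 17 of 29 were tested, with 5 called higher, 8 lower and 4 not (6 higher and 5 lower with library totals). Of the 17, 5 passed the filter through Lgr5high only and 2 through Lgr5neg only. Chga, chromogranin A, was at 1.64, 5.84 and 2.08 against 3.31, 9.65 and 5.54 CPM (log2 difference -1.03, SE 0.32, adjusted p = 0.00869). Chgb, chromogranin B, was at 18.8, 124 and 43 against 21.2, 52.9 and 27.4 CPM (log2 difference 0.59, SE 0.22, adjusted p = 0.0317), and at 340.3 and 558 CPM on average in Lgr5med and Lgr5low. The chromogranin libraries of the end gates overlapped, and mouse 2 was highest in both gates. Neither call held without mouse 3 (Chga 0.069, Chgb 0.123 as adjusted p) or without the block (0.123 and 0.384), and that of Chgb ended without mouse 2 as well (0.385). The hormone genes Cck (-3.98) and Ghrl (-4.82) were lower in Lgr5high on the log2 scale. Of 18 tuft cell markers 7 were tested and 1 was called on each side, a lower share than the 67.3% of all genes tested. Of the 7, 1 passed the filter through both gates, 1 through Lgr5high only and 2 through Lgr5neg only. Dclk1 was near the floor in both gates, at 0, 1.4 and 0.678 against 0.15, 1.78 and 1.57 CPM.

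Lymphocyte transcripts were found in the Lgr5neg libraries, although CD45 had been gated out. Of 12 tested intraepithelial lymphocyte and T cell markers, 11 were called lower in Lgr5high and 1 was not, with a median of -6.40. Of the 12, 10 passed the filter through Lgr5neg only, so for these the filter itself favoured that side. Gzmb, granzyme B (chromosome 14, 56258838 to 56262260), was at 29.1, 46.7 and 23.2 CPM in Lgr5neg and 0.0455, 0.265 and 0.452 CPM in Lgr5high (log2 difference -6.98, SE 0.38, adjusted p = 5.79e-10). Gzma, granzyme A, was at 58.7, 82.5 and 33.6 against 0.501, 0.455 and 0.0452 CPM (log2 difference -7.45, SE 0.29, adjusted p = 6.79e-12). Ptprc, which encodes CD45 itself, was at 8.19, 7.78 and 6.36 CPM in Lgr5neg with 282 counts, against 11 counts over the 3 Lgr5high libraries. All 3 Lgr5neg libraries held these transcripts, mouse 2 the most of the granzymes. Ccl5, a T cell chemokine, had 709 against 6 counts and Cd3e, of the T cell receptor complex, 173 against 3. The summed share of the list was 0.0133% to 0.0311% of the counts left after removing mitochondrial ribosomal RNA in Lgr5neg and 0.000765% to 0.00109% in Lgr5high, and Cd2 was at 0 counts in all 6 libraries. Markers of other cells were scarce but not absent. Of 12 endothelial markers 3 were tested, 2 called higher in Lgr5high and 1 lower, each past the filter through 1 gate only. Cdh5, Kdr and Flt1 had 0 counts. Of 13 mesenchymal and muscle markers 2 were tested, 1 called lower and 1 not, and 1 of them passed the filter through Lgr5neg only. In that list 6 had 0 counts, Pdgfra and Col3a1 among them. Of 13 myeloid and B cell markers 3 were tested, 1 called higher, 1 lower and 1 not, and C1qa and C1qb had 0 counts. Of these 3, 1 passed the filter through Lgr5high only. The summed share of that list was 0.00373% to 0.00481% in Lgr5high and 0.004355% to 0.00586% in Lgr5neg. Of 12 erythroid and neural markers 2 were tested, 1 called on each side, each past the filter through 1 gate only. Hbb-bt and Elavl4 had 0 counts.

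Defence genes lay mostly with Lgr5neg. Of 16 tested Reg lectins and antimicrobial genes, 12 were called lower in Lgr5high, 2 higher and 2 not, with a median of -3.20. Reg3b, a bactericidal lectin, was at 67.8, 104 and 64.2 against 5463, 5367 and 6011 CPM (log2 difference -6.19, SE 0.30, adjusted p = 2.31e-11). Reg3g (-5.24) and Reg3a (-6.91) were lower likewise on the log2 scale. Reg4, a lectin of secretory cells, was higher in Lgr5high, at 6.42, 15.4 and 12.2 against 1.73, 3.89 and 3.72 CPM (log2 difference 1.86, SE 0.26, adjusted p = 8.17e-06). Of 16 MHC class I and immunoproteasome genes 13 were called lower, 1 higher and 2 not. H2-Q2, a class I gene, was at 8.69, 11 and 6.56 against 251, 143 and 187 CPM (log2 difference -4.45, SE 0.25, adjusted p = 5.83e-10), and H2-Q1 differed by -6.97. The lymphocyte transcripts given above lie in the same Lgr5neg libraries, and their part in the MHC class I difference was not tested. Of 7 MHC class II genes 3 were called lower and 4 not, and with library totals 0 were called; without mouse 2 the count was 1 and without mouse 3 it was 5. H2-Ab1 overlapped between the gates, at 19.4, 31.5 and 12.8 against 48.5, 64.5 and 21.7 CPM (log2 difference -1.05, SE 0.17, adjusted p = 4.08e-05), and each mouse had the lower value in Lgr5high. Its call rests on the mouse as block and ended without it (adjusted p = 0.0892).

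Junction, survival and early response genes completed the lists. Of 18 claudin and junction genes 12 were called lower in Lgr5high, 2 higher and 4 not, against 4 lower and 6 higher with library totals. Cldn2, a claudin that forms cation pores in crypts, was at 427, 414 and 376 against 84.7, 111 and 158 CPM (log2 difference 1.83, SE 0.22, adjusted p = 1.23e-06), and Cldn4, a sealing claudin, at 1.37, 0.948 and 0.905 against 42.7, 34 and 21.7 CPM (log2 difference -4.91, SE 0.24, adjusted p = 2.45e-11). Of 18 apoptosis regulators 13 were called lower, 1 higher and 4 not (7 lower and 3 higher with library totals). The one that was higher was Bcl2, the survival gene, at 29.9, 33 and 43.8 against 4.06, 5.84 and 2.73 CPM (log2 difference 3.08, SE 0.26, adjusted p = 4.37e-08). Of 16 immediate-early and dissociation genes 9 were called lower, 1 higher and 6 not (7 lower and 4 higher with library totals). The share called in either direction was close to the 67.3% of all genes tested. Zfp36, which destabilises mRNAs of early genes, was at 80.8, 39.8 and 54.4 against 501, 338 and 330.0 CPM (log2 difference -2.77, SE 0.19, adjusted p = 1.72e-09), and Atf3, a stress factor, differed by -4.38 on the log2 scale. These genes are known to respond to the dissociation of tissue, whose part was not tested.

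Summed over each list, the shares of the counts left after removing mitochondrial ribosomal RNA separated the gates for some lists and not for others. The stem cell markers took 1.48%, 1.09% and 1.38% in the 3 Lgr5high libraries and 0.0986%, 0.0716% and 0.0819% in the 3 Lgr5neg libraries. Lgr5, the gene of the gates, is part of that sum. The G2/M genes took 0.762% ± 0.0473 in Lgr5high and 0.0256% ± 0.00492 in Lgr5neg (SD, n = 3). The ribosome biogenesis genes took 0.737% ± 0.0689 against 0.0766% ± 0.00794. The brush border hydrolases took 0.219%, 0.271% and 0.226% in Lgr5high and 3.91%, 3.81% and 4.38% in Lgr5neg. The lipid absorption genes took 0.248% ± 0.0549 against 6.38% ± 1.56. The goblet markers took 0.102%, 0.484% and 0.216% against 0.741%, 1.23% and 0.888%, and the Paneth markers 0.742%, 0.84% and 0.48% against 0.0438%, 0.112% and 0.105%. In each of these lists, the S phase list (0.352% ± 0.0242 against 0.0335% ± 0.00459) and the lymphocyte list the gates did not overlap, and the two-sided exact permutation test gave p = 0.1, the smallest that 3 against 3 can give. That test shuffled the libraries without regard to the mouse, so it leaves out the pairing used for the single genes. For the enteroendocrine list the shares were 0.0207% ± 0.0161 and 0.0213% ± 0.0157 (exact p = 0.9). The shares of the nuclear respiratory chain (1.29%, 1.47% and 1.23% against 1.82%, 1.41% and 1.72%), mitochondrial mRNA and MHC class II lists overlapped too. The claudin and junction genes took more in Lgr5high (0.345% ± 0.0114 against 0.308% ± 0.0228), while 12 of 18 were called lower under TMM. Shares are not scaled by TMM, and with library totals 4 of these 18 were called lower and 6 higher.

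**Figure D3:**
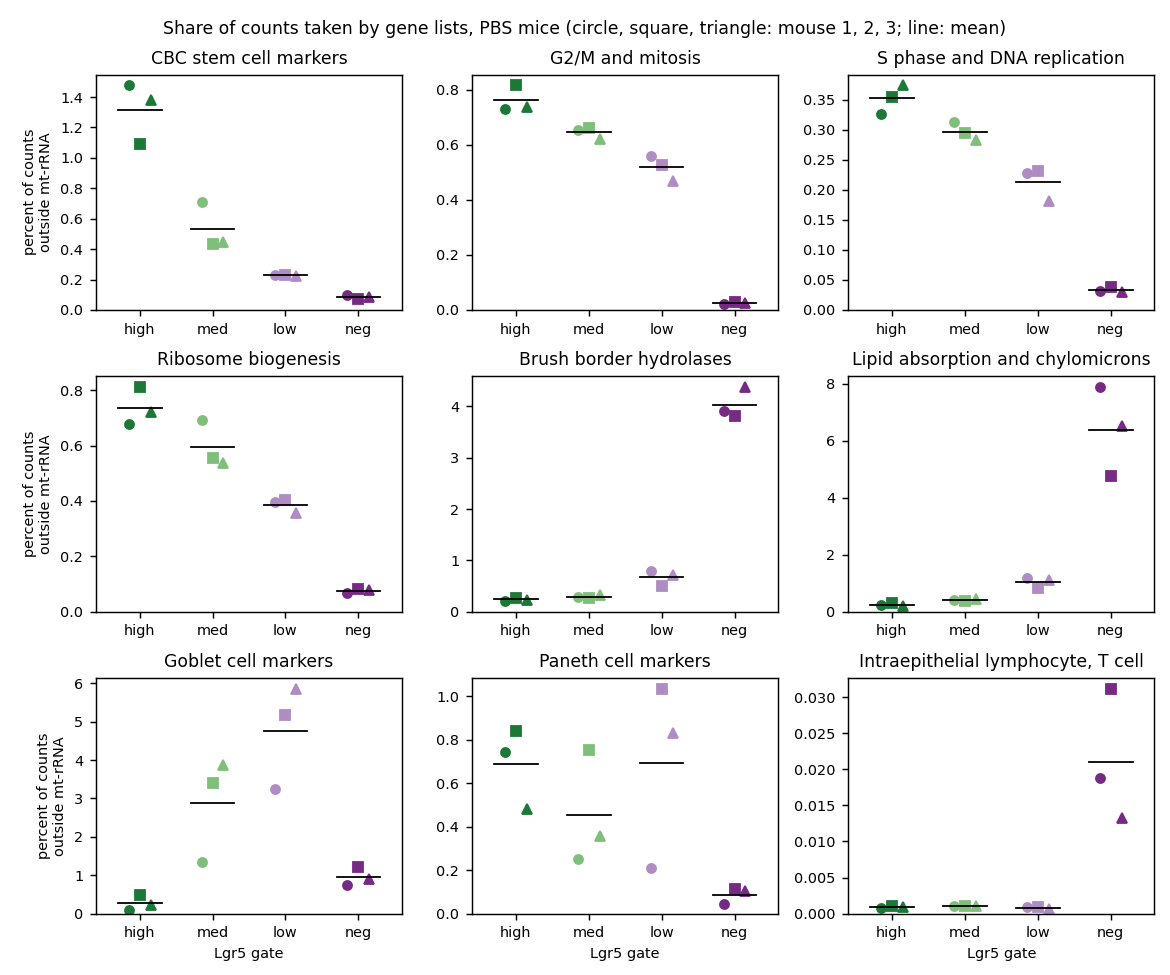
Share of the counts left after removing mitochondrial ribosomal RNA (percent, y axis from 0) taken by 9 gene lists in each library of the 4 Lgr5 gates of PBS mice; symbols are mice and lines means of 3. Mitosis and replication genes keep most of their share until Lgr5low, brush border and lipid genes are low until Lgr5low, and the goblet share is highest in Lgr5low.

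The middle gates place the difference along the sort. Of the 2530 genes beyond 2-fold higher in Lgr5high, 1962 (77.5%) had means that stepped down at every gate, and of the 2213 lower ones 1732 (78.3%) had means that stepped up at every gate. A further 406 of the higher genes were highest in a middle gate. Steps were measured as the share of the log2 difference between the ends, on log2(CPM + 0.5), with no test. For the higher genes the median steps were 13.2% from Lgr5high to Lgr5med, 15.6% from Lgr5med to Lgr5low and 70.6% from Lgr5low to Lgr5neg. For the stem cell list they were 21.1%, 24.0% and 54.5%. For the G2/M list they were 3.1%, 5.2% and 90.1%, and for the S phase list 7.2%, 12.8% and 80.9%. Mki67 shows this, with means of 914, 784, 664 and 36 CPM from Lgr5high to Lgr5neg, beside Olfm4 with 2223, 746, 228 and 16.6 CPM. Axin2 fell from 252 through 122 to 52.7 CPM by Lgr5low, close to the 42.7 CPM of Lgr5neg. Brush border genes stepped by 14.2%, 27.3% and 55.4%, and the 8 villus tip genes by 11.2%, 37.9% and 49.9%. Cholesterol and fatty acid synthesis genes took 42.9% of their difference between Lgr5high and Lgr5med. The lymphocyte markers took 99.4% of their difference in the last step, with values near the floor in the 3 other gates.

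The same comparison in the 3 NRG1-treated mice shares no library with the PBS mice. Of the 8813 genes called in PBS mice, 8619 were also tested there, 8570 of them had the same direction, 7665 had the same direction and were called, and 0 were called in the opposite direction. Lgr5 differed by 6.90 on the log2 scale in NRG1 mice against 6.97 in PBS mice, Apoa1 by -7.46 against -7.27, Mki67 by 4.92 against 4.73 and Hnf4g by -4.00 against -3.62. Whether the difference between the gates depended on treatment was tested as an interaction over the 12 libraries of both ends, with the mouse as block. In edgeR's quasi-likelihood test 0 of 14116 genes were called (0%), with 954 at an unadjusted p under 0.05 (6.76%). DESeq2 called 26 of them, with 732 at an unadjusted p under 0.05, and the fit without the block called 2. The smallest adjusted p was that of Axin2 (0.0715), which differed by 3.96 (SE 0.16) in NRG1 mice against 2.55 (SE 0.18) in PBS mice on the log2 scale (difference 1.40, SE 0.21). Axin2 was called by DESeq2 (adjusted p = 1.85e-05) and in the fit without the block (0.0170). Mcm6 differed by 2.96 against 4.27 (difference -1.31, SE 0.26, adjusted p = 0.210). The median SE of the interaction was 0.34 on the log2 scale.

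**Figure D4:**
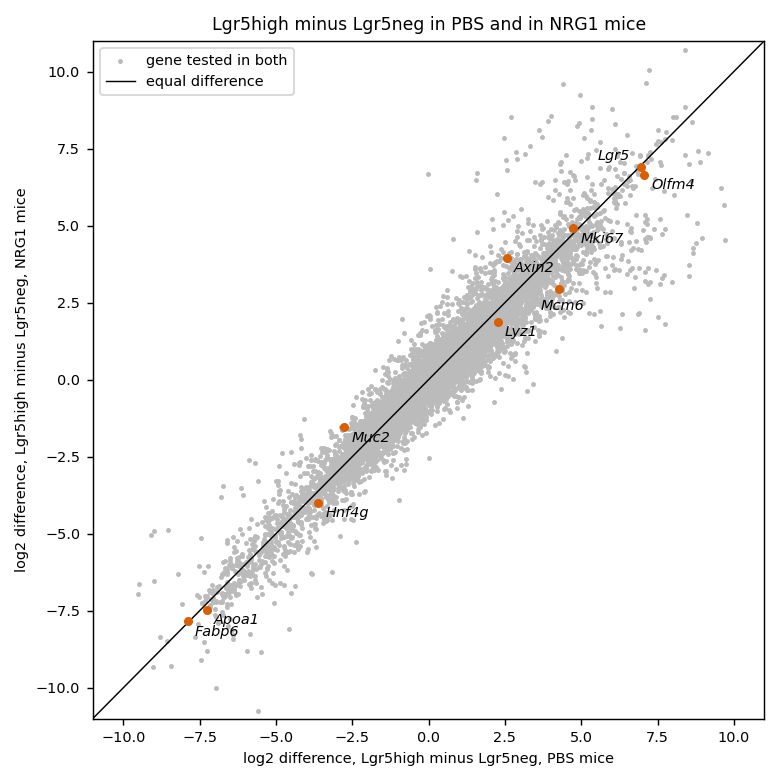
Log2 difference between Lgr5high and Lgr5neg in PBS mice (x axis) and in NRG1 mice (y axis) for genes tested in both, each over 3 mice; the line marks equal differences. Most genes lie along the line, Axin2 lies above it at 2.55 and 3.96, and Mcm6 below it at 4.27 and 2.96.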

How the data were processed

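RNA from sorted crypt cells was sequenced as single reads of 76 nt from 15 ng of RNA, per the labels' protocols, and 6 of 24 libraries were compared. The submitters' processing notes name STAR, featureCounts and the build GRCm38. Their versions, the annotation and the strand setting are not given in the sources used here, so reads of overlapping and antisense genes cannot be told apart. The deposited values are whole-number counts per gene symbol (43280 symbols) that the authors had not normalised. Coordinates are from GENCODE vM21, which 39469 symbols matched directly and 963 by an older name.

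Counts were tested in R 4.3.3 with edgeR 4.0.16 (TMM, minimum count 10, minimum total 15, glmQLFit robust, mouse as block), with Benjamini-Hochberg adjustment. DESeq2 1.42.0 was an alternative. The block has 2 residual degrees of freedom beside a prior of 14.6. Each mouse gave a library of each gate, by the shared first part of its description label. Deviations of same-mouse libraries from the gate means correlated at 0.029, -0.002 and 0.062 over 9209 genes. Levels are scaled over the 12 PBS libraries.

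Genes named are the 12 largest differences on each side (beyond 2-fold, average log2 CPM of at least 4, no overlap, no predicted genes), a fixed set of marker genes, up to 3 called members of each list (at least 5 CPM in the higher gate) and up to 2 that go against it. Other names are said to be chosen for their values. The comparison and the 40 lists (881 entries) were chosen with earlier results of these data known. The fits were tested on simulated data with known changes. One listed T cell gene was not matched. The alternatives tried are given in the closing section. Some genes the rule names are not reported here.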

Additional observations from a re-analysis of the deposited data

How the results depend on the processing

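The count of genes called was within 1.5 times of 8813 under all 12 alternatives (7634 with the stricter filter to 10029 with library totals), and from 7861 to 8211 with a mouse left out. Scaling decides the split: with library totals 7993 genes were called higher and 2036 lower, and 5264 and 1145 beyond 2-fold. Without the mouse as replicate block 9039 genes were called (4853 beyond 2-fold), and among the genes followed the block changed no call beside the 5 named with the results. Of the 174 genes followed, 147 kept their direction and their side of the threshold under every alternative that tested them, and 157 under every one but library totals. With library totals Epcam (0.22), Tcf7l2 (0.15), Fzd5 (0.35), Hnf4a (0.94) and Cdx2 (0.30) turned to Lgr5high on the log2 scale; that scaling moved the median over all genes from 0.09 to 1.04. Without mouse 3 the calls of 14 genes ended. For the interaction with treatment, 2 genes were called with no replicate block, 26 by DESeq2 and 95 with no filter, and 0 to 3 with a mouse left out; the cause was not tested. Counts set the limit for genes near 1 CPM in 1 gate, whose differences depend on a few reads.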

Other observations

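General epithelial genes were lower in Lgr5high for 6 of 8, with 1 higher and 1 not called (median log2 difference -1.37; 4 lower and 2 higher with library totals). Krt8, a keratin of simple epithelia, was at 126, 174 and 159.8 CPM in Lgr5high and 752, 710.5 and 602 CPM in Lgr5neg (log2 difference -2.17, SE 0.21, adjusted p = 9.16e-08). Its usual pairing partner Krt18 went the other way, at 124, 101 and 114 against 63.5, 65.3 and 56.3 CPM (log2 difference 0.87, SE 0.17, adjusted p = 0.000204). The libraries of the gates did not overlap for either keratin, and both kept their call and side under the 12 alternatives. Krt19 was at 331, 397 and 398 against 1149, 1396 and 1356 CPM (log2 difference -1.79, SE 0.20, adjusted p = 6.87e-07), and Cdh17, a cadherin of the intestine, at 219.6, 259.9 and 318 against 1109, 1029 and 1038 CPM (log2 difference -2.01, SE 0.21, adjusted p = 2.8e-07).

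A few genes, chosen after their values were seen, lay apart from their lists. Ccl28, a mucosal chemokine with antimicrobial activity, was at 142, 123 and 115 CPM in Lgr5high and 58.4, 68.3 and 38.9 CPM in Lgr5neg (log2 difference 1.23, SE 0.18, adjusted p = 1.16e-05), where 12 of the 16 tested genes of its antimicrobial list were lower. Nrg4, an ErbB4 ligand, was at 7.69, 5.42 and 10.7 against 3.98, 2.76 and 5.79 CPM (log2 difference 0.93, SE 0.27, adjusted p = 0.00588), with overlapping libraries, and of the other ligand genes Egf was also higher while Ereg, Areg, Hbegf and Tgfa were lower. Itgam, an integrin gene of the myeloid list, was present in both gates, at 10, 16.5 and 10.9 against 31.6, 36.9 and 31.3 CPM (log2 difference -1.44, SE 0.18, adjusted p = 2.2e-06), where C1qa and C1qb had 0 counts in all 6 libraries. Klf6, an early response factor, was at 41.5, 36.4 and 30.6 against 226, 254 and 276 CPM (log2 difference -2.80, SE 0.19, adjusted p = 1.47e-09).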
